A study of Caenorhabditis elegans with 18 samples.

Results

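The comparison of day 5 with day 1 under the M05B5.5 plasmid covers 6 of the 18 libraries of a study of ageing in the nematode Caenorhabditis elegans. The members were taken from the source labels: 3 libraries of worms aged 5 days and 3 of worms aged 1 day, all carrying the perturbation M05B5.5, the sequence name of hlh-2. Each library holds total RNA of whole hermaphrodites of N2, the standard wild-type strain, so all groups share 1 strain and sex. The other 12 libraries come from the same ages under T14F9.5, the sequence name of lin-32, and under L4440, the name of the usual empty RNAi feeding vector, with 3 libraries in each of the 4 groups. The labels do not say what event the ages are counted from, when the perturbation began, whether progeny were prevented or removed, or whether a group's 3 libraries stem from worms cultured separately. The p-values below therefore measure the spread between libraries, which may be technical. That spread is estimated over all groups of the fit, those of the other plasmids included.

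hlh-2 encodes the single worm member of the E protein family, basic helix-loop-helix (bHLH) transcription factors related to Daughterless of Drosophila. It pairs with tissue-restricted bHLH partners, among them LIN-32, to specify neurons, gonadal regulatory cells and other lineages. Adult hermaphrodites first make embryos with their own stored sperm, then exhaust it, and later show loss of muscle structure, changes in the cuticle and altered stress and immune gene expression. RNAi by feeding lowers a transcript through double-stranded RNA taken up from bacteria, and the degree of lowering can differ between cultures and ages.

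hlh-2, on chromosome I at 7190788 to 7193920 of WBcel235 (minus strand), was read first because it is the target. Levels here are counts-per-million (CPM), each gene's count relative to its library total, scaled by edgeR's TMM factors so that libraries can be compared. hlh-2 had 20.9, 31.1 and 12.5 CPM in the 3 day-5 libraries, numbered 46, 47 and 48 by their titles, against 12.7, 12.2 and 11.4 CPM in day-1 libraries 37, 38 and 39. All 6 lay below 11 of the 12 libraries of the other plasmids, whose lowest value was 46.4 CPM. The remaining library, L4440 day-1 replicate 2, had 23.7 CPM, less than library 47. Between the ages, the hlh-2 groups overlapped. The difference was 0.82 ± 0.29 on the log2 scale (fitted log2 fold change ± SE) with all libraries, and 0.84 ± 0.32 without library 46. Neither passed the test (adjusted p = 0.309 and 0.119, edgeR's quasi-likelihood test with Benjamini-Hochberg adjustment). In both fits the sign of the difference turned when the sequencing lane was added as a term. lin-32, a bHLH partner of the E protein, had 0.981, 0.201 and 0.141 CPM at day 5, against 0.848, 1.8 and 1.52 CPM at day 1. Library 46 lay within the day-1 range, and libraries 47 and 48 lay below it.

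**Figure D1:**
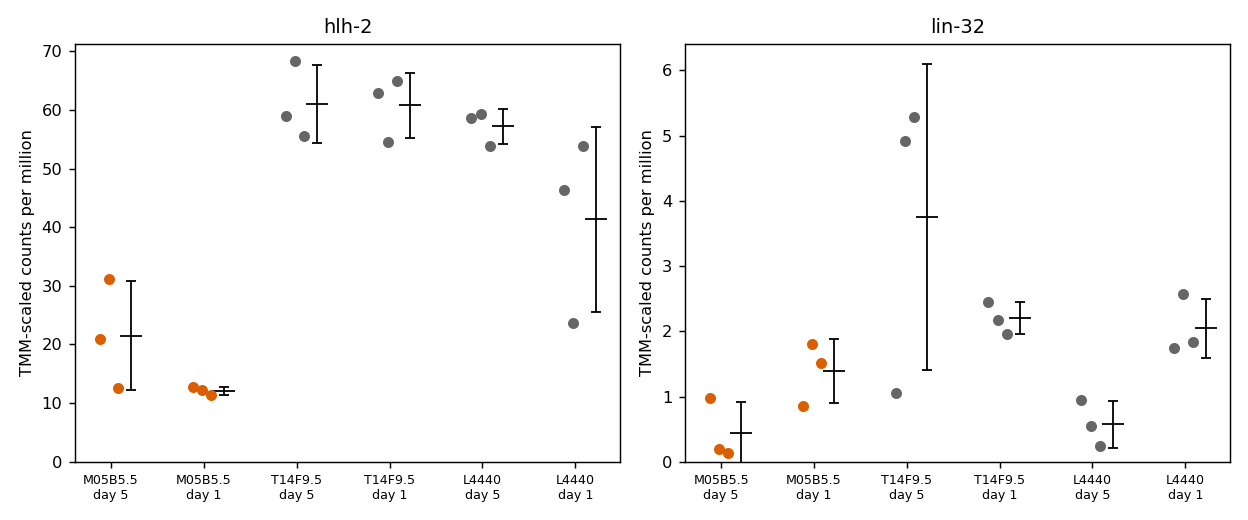
Levels of hlh-2 and lin-32 in TMM-scaled counts-per-million (CPM), by plasmid and age. Points are libraries, horizontal marks the mean and bars the SD of 3 libraries; the orange M05B5.5 libraries of both ages hold 11.4 to 31.1 CPM of hlh-2.

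Library 46 stood apart from its group before any gene was considered. Its log2 CPM over 14735 genes correlated at 0.988 to 0.992 (Pearson's r, across genes, which are not independent) with the day-1 libraries, and at 0.962 and 0.961 with libraries 47 and 48, which correlated at 0.991 with each other. On the first principal component of all 18 libraries it lay at -22.5, beside the day-1 libraries at -23.3 to -19.4, while libraries 47 and 48 lay at 67.3 and 70.2. On the third principal component it lay at 23.7, library 47 at -5.73 and library 48 at 26.7, against -19.7 to -8.62 for day 1. The ages did not overlap on this component, though library 47 lay nearer to day 1 than to libraries 46 and 48. No library was a copy of another: the chi-square of counts per degree of freedom was 6.73 at the closest pair of day-1 libraries and 22.7 to 37.4 between library 46 and day 1. Library totals were 32507580 to 43016293 counts, and ribosomal RNA genes took 0.0803% to 0.712% of them. The day-5 libraries were run on lanes 5, 6 and 7 and the day-1 libraries on lanes 3 and 4, so lane and age cannot be told apart here. Each result is given with and without library 46.

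With all 6 libraries, no gene passed the test at an adjusted p of 0.05 (0 of 14735, 0.0%; edgeR's quasi-likelihood test in a fit of all 18 libraries, Benjamini-Hochberg adjustment). At an unadjusted p under 0.05 there were 1905 genes (12.9%), and DESeq2 called 146 (0.991%), 101 higher (0.685%) and 45 lower (0.305%) at day 5. Without library 46, edgeR called 733 of 14996 genes (4.89%), of which 512 were higher (3.41%) and 221 lower (1.47%) at day 5, while 3991 (26.6%) had an unadjusted p under 0.05. DESeq2 called 1980 (13.2%) without it, including 725 of the 733. With lane as a term, edgeR called 0 without library 46. The spread behind the 733 also comes from the other plasmids, whose first day-5 libraries, 40 and 43, were kept. The count was 3049 with those left out too, and 6944 in the M05B5.5 groups alone. Of the 146 genes that DESeq2 called with all libraries, 127 were among the 733. Leaving out any 1 further library of the 5 brought the 733 down to between 0 and 2, so each of them was needed for the count. The counts of genes called below are those of edgeR without library 46 unless another fit is named, and because many genes share the same adjusted p after the correction, values such as 0.0368 recur.

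The level of library 46 at the called genes was not used to call them, though the day-1 libraries enter both. Of the 512 genes called higher, 177 (34.6%) lay above the day-1 range in library 46, 207 within it and 128 (25%) below it. Over all 14996 genes, 30.1% lay above and 34.6% below. The median difference of library 46 from the day-1 mean at these 512 genes was 0.02 in log2 CPM, while that of libraries 47 and 48 was 1.67. The 221 genes called lower were different in this respect: 159 of them (71.9%) lay below the day-1 range in library 46, with a median difference of -0.39, against -1.92 in libraries 47 and 48. Among 11864 genes that reached 1 CPM, library 46 was over 2-fold above the day-1 mean at 38 and over 2-fold below it at 131, while the mean of libraries 47 and 48 was so at 736 and 1015. Of the 38, 12 were over 2-fold higher in libraries 47 and 48 too, beside 6.2% of the 11864. Of the 131, 44 were over 2-fold lower in libraries 47 and 48 too, beside 8.56%.

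**Figure D2:**
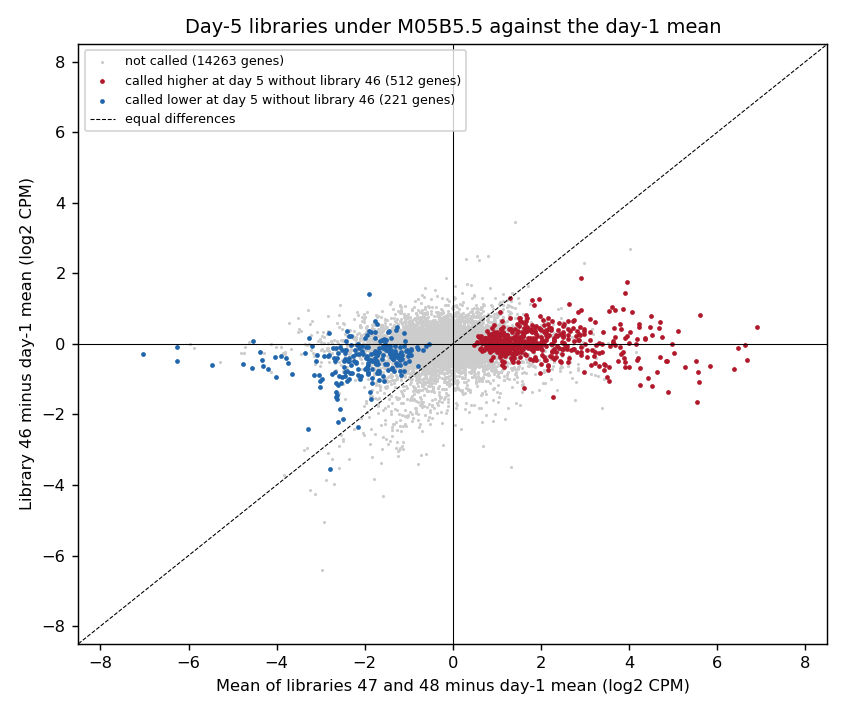
Difference from the day-1 mean in log2 CPM for each of 14996 genes, in library 46 (vertical axis) and in the mean of libraries 47 and 48 (horizontal axis), which share that day-1 mean. Red and blue points are the 512 and 221 genes called higher and lower without library 46; the red points spread along the horizontal line at 0, with a median of 0.02 in library 46 against 1.67 in libraries 47 and 48.

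Among genes of at least 5 CPM, the largest increases in libraries 47 and 48 were those of F56D6.9, ftn-1, F56D6.8, F15B9.6, dct-8, lips-11, C18D11.6 and col-183. ftn-1, which encodes a ferritin heavy chain that stores iron, lies on chromosome V at 7546468 to 7547579 (minus strand). It had 0.144, 19.5 and 39.2 CPM in libraries 46, 47 and 48, against 0.164, 0.202 and 0.299 CPM at day 1. Libraries 47 and 48 lay far above every day-1 library and library 46 below them all. ftn-1 rose by 6.73 ± 1.53 on the log2 scale without library 46 (adjusted p = 0.0368), a mean of 132 times the day-1 mean, and the value with it was 6.15 ± 1.76, which did not pass (adjusted p = 0.303, edgeR with Benjamini-Hochberg adjustment). DESeq2 did call ftn-1 with all libraries (adjusted p = 0.0119).

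F56D6.9, F56D6.8 and dct-8 lie beside each other on chromosome IV, between 3892327 and 3895506. dct-8 is named as a gene under DAF-16 control that affects germ-line tumours, and it had 0.173, 24.5 and 38.4 CPM at day 5, against 0.301, 0.278 and 0.373 CPM at day 1. F56D6.9 had 0.318, 25.1 and 39.9 CPM at day 5, against 0.164, 0.253 and 0.224 CPM at day 1. F56D6.8 had 0.231, 22.9 and 36.6 CPM at day 5, against 0.164, 0.329 and 0.249 CPM at day 1. All 3 were high in libraries 47 and 48, with library 46 within or beside the day-1 range, and rose by 6.40 to 6.92 on the log2 scale without it (adjusted p = 0.0413, 0.0383 and 0.0403 for dct-8, F56D6.9 and F56D6.8, edgeR with Benjamini-Hochberg adjustment). F56D6.9 overlaps oac-21 on the same strand, and the deposited counting may have split or dropped their reads.

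lips-11, a lipase-related gene, had 0.346, 43.1 and 29.4 CPM at day 5, against 0.356, 0.481 and 1.04 CPM at day 1. F15B9.6 had 0.837, 69.7 and 106 CPM at day 5, against 0.985, 0.86 and 0.921 CPM at day 1. C18D11.6 had 0, 5.51 and 11.4 CPM at day 5, against 0.164, 0.0759 and 0.124 CPM at day 1. In each of these genes library 46 lay below the day-1 values. col-183, a collagen gene on chromosome X, was higher, unlike the collagens below, with 0.144, 3.53 and 8.64 CPM at day 5, against 0, 0.0759 and 0.149 CPM at day 1. It was the single collagen called higher, by 5.55 ± 1.39 on the log2 scale (adjusted p = 0.0417, edgeR with Benjamini-Hochberg adjustment).

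The largest decreases, again among genes of at least 5 CPM, were col-93, col-20, col-133, col-94, tsp-10, col-159, mnp-1 and nlp-24. The col genes encode cuticle collagens, secreted proteins that build the exoskeleton. col-20, on chromosome II at 4869670 to 4870791, had 358, 6.52 and 6.40 CPM at day 5, against 488, 482 and 525 CPM at day 1. Library 46 kept most of the day-1 level, while libraries 47 and 48 held 0.013 of the day-1 mean. col-20 fell by 6.26 on the log2 scale (SE 1.39, adjusted p = 0.0368, edgeR with Benjamini-Hochberg adjustment). col-93 had 204, 2.24 and 1.55 CPM at day 5, against 277, 235.4 and 241 CPM at day 1, and fell by 7.01 (SE 1.69, adjusted p = 0.0395). DESeq2 gave no adjusted p for either gene. col-93 and col-94 overlap dhc-4 on the opposite strand, and whether the counting used strand is not given.

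col-133 had 30.4, 0.517 and 0.259 CPM at day 5, against 39, 28.5 and 30.9 CPM at day 1, with library 46 inside the day-1 range. mnp-1 had 18.2, 2.53 and 1.74 CPM at day 5, against 26.7, 39.5 and 40.3 CPM at day 1. tsp-10, a tetraspanin of the cell membrane, had 3.35, 0.0574 and 0.259 CPM at day 5, against 4.21, 5.41 and 5.58 CPM at day 1. In mnp-1 and tsp-10 all 3 day-5 libraries lay below day 1, library 46 by the least. The 16 leading genes were picked among those that edgeR called without library 46, and edgeR called no gene at all with it. DESeq2 with all libraries called F15B9.6, F56D6.9, ftn-1, F56D6.8, dct-8 and lips-11 higher (adjusted p = 0.0103 to 0.0214). It called none of the leading decreases, several of which it gave no adjusted p.

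**Figure D3:**
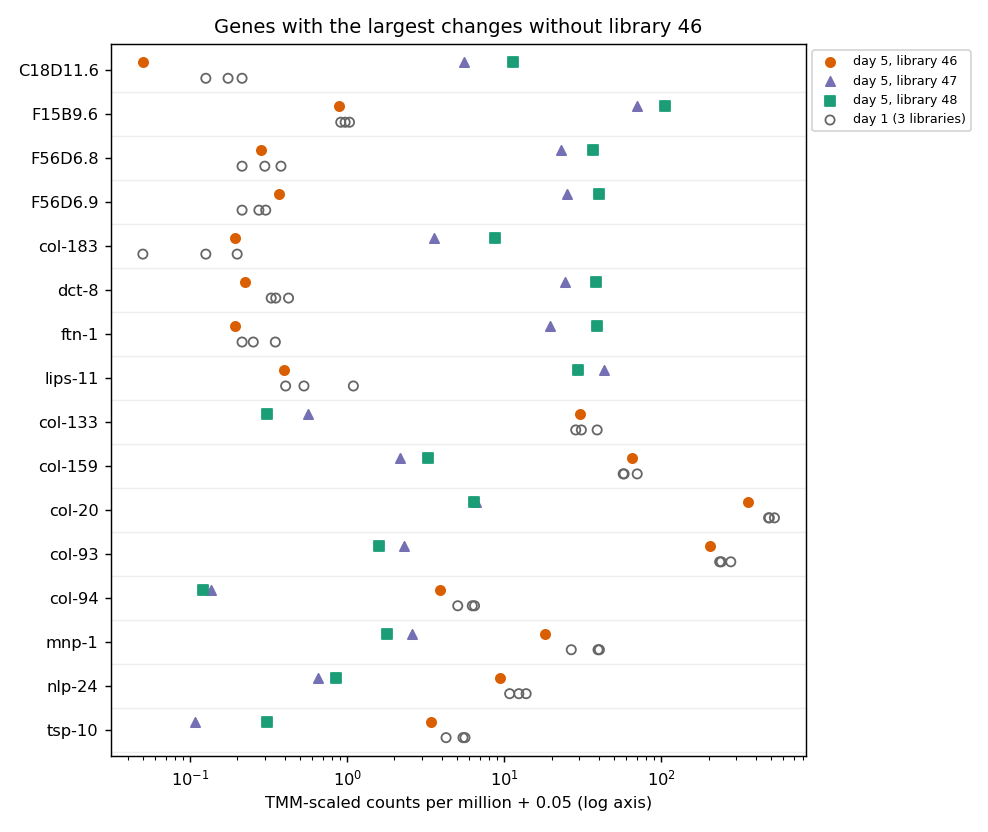
TMM-scaled counts-per-million (CPM) plus 0.05, on a log axis, of the 16 genes with the largest changes without library 46, among genes of at least 5 CPM. Filled symbols are the 3 day-5 libraries and open circles the 3 day-1 libraries; library 46 (circle) lies beside the open circles, as for col-20 at 358 CPM, away from libraries 47 and 48 at 6.52 and 6.40 CPM.

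As a family, 18 of 126 collagen genes tested were called lower and 1 higher, where 1.47% of all genes were called lower and 3.41% higher. Their median was -1.24 on the log2 scale without library 46, -0.91 with all libraries, and -0.17 in library 46 alone, beside -0.03, -0.01 and -0.01 over all genes tested. Of these genes, col-124 had 115, 20.4 and 26.2 CPM at day 5, against 168, 138 and 149 CPM at day 1, so that all 3 day-5 libraries were below day 1. The summed level of 5 epidermal markers was 205, 34.9 and 40.4 CPM at day 5, against 252, 245 and 274 CPM at day 1. These markers are col-19, rol-6, dpy-7, bli-1 and grd-2. Most of them are collagen genes themselves, so their sum is no separate measure of the epidermis. Here, as in every bulk sample of this kind, fewer cells of a type and less RNA per cell cannot be told apart.

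Muscle genes showed a like division among libraries. Of 30 body wall muscle genes, 29 lay lower in libraries 47 and 48 than in every day-1 library, where 34.3% of all genes did so. Only hlh-1 and mup-2 passed the test, beside 1.47% of all genes called lower. With library 46 included, 18 of the 30 lay below without overlap, where 16% of all genes did. Their median was -1.10 without library 46, -0.68 with all libraries and -0.09 in library 46 alone. hlh-1, the worm MyoD, had 3.23, 0.718 and 0.659 CPM at day 5, against 5.03, 6.73 and 6.52 CPM at day 1, so that all 3 day-5 libraries were lower. It fell by 3.05 on the log2 scale without library 46 (SE 0.79, adjusted p = 0.0439, edgeR with Benjamini-Hochberg adjustment). mup-2, a muscle troponin T, had 80.9, 39.8 and 49.5 CPM at day 5, against 95, 90.4 and 90 CPM at day 1. Summed over the 5 muscle markers, the level was 2040, 726 and 886 CPM at day 5, against 2140, 2010 and 1920 CPM at day 1. The 7 neuronal markers summed to 292, 289 and 303 CPM at day 5, against 285, 282 and 284 CPM at day 1. In its medians, the longer list of 36 synapse and neurotransmission genes was divided like muscle, by less. They were -0.04, -0.30 and -0.40 in libraries 46, 47 and 48 relative to the day-1 mean. Of the 36, 23 lay below day 1 in libraries 47 and 48, where 34.3% of all genes did. None was called, beside 4.89% of all genes. The list's summed level, unlike that of muscle, did not fall, with 1040, 1150 and 1290 CPM at day 5, against 1030, 1070 and 1060 CPM at day 1. Of 15 touch receptor neuron genes, 1 was called lower, where 1.47% of all genes were. It was the beta-tubulin gene mec-7, with 5.77, 3.33 and 3.46 CPM at day 5, against 7.55, 8.3 and 7.89 CPM at day 1. Muscle makes up part of the whole worm, and the part that tissue share had in these values was not tested.

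Among the bHLH factors, the family of the target, 4 of 28 tested were called lower and none higher, beside 1.47% and 3.41% of all genes. hlh-1 is given above. hlh-14, related to Achaete-Scute factors of neuroblasts, had 3.69, 1.7 and 0.777 CPM at day 5, against 5.58, 6.7 and 7.32 CPM at day 1. cnd-1, the worm NeuroD, had 1.65, 0.201 and 0.188 CPM at day 5, against 1.67, 2.12 and 2.46 CPM at day 1. Both were below every day-1 library at day 5, cnd-1 in library 46 by a narrow margin. hlh-14 fell by 2.36 on the log2 scale without library 46 (SE 0.46, adjusted p = 0.0368, edgeR with Benjamini-Hochberg adjustment). cnd-1 fell by 3.10 (SE 0.80, adjusted p = 0.0446, same test). The fourth, lin-32, fell by 2.69 (SE 0.65, adjusted p = 0.0396, same test). The family's median was -0.22, beside -0.03 over all genes. With the first day-5 library of every plasmid left out (40, 43 and 46), the log2 differences between ages under M05B5.5 for hlh-1, hlh-14, cnd-1 and lin-32 were -3.05, -2.37, -3.10 and -2.69. In the same fit they were -2.63, -0.55, -1.46 and 1.20 under T14F9.5, where lin-32 is itself the target, and -3.08, -1.60, -2.42 and -2.23 on L4440. Outside the family, nhr-67, a tailless-related receptor of the anchor cell, had 1.24, 0.632 and 0.259 CPM at day 5, against 1.75, 2.58 and 2.46 CPM at day 1. It fell by 2.23 without library 46 (SE 0.43, adjusted p = 0.0368, same test). It was the 1 called of 18 anchor cell and distal tip genes, beside 1.47% of all genes called lower. Without libraries 40, 43 and 46 its values were -2.24 under M05B5.5, -0.43 under T14F9.5 and -0.006 on L4440, and the interactions did not pass.

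Of 18 genes first transcribed in embryos, ceh-51 and ceh-13 were called lower and none higher, beside 1.47% and 3.41% of all genes, with a list median of -1.53 without library 46, -0.96 with all libraries and -0.17 in library 46. ceh-51, a homeobox gene of the early mesoderm, had 3.67, 0.144 and 0.165 CPM at day 5, against 4.59, 4.05 and 4.26 CPM at day 1. ceh-13, the labial-type Hox gene, had 12.5, 5.4 and 4.31 CPM at day 5, against 15.1, 17.7 and 17.4 CPM at day 1. All 3 day-5 libraries were below day 1 for both genes. The 13 embryonic markers summed to 51.7, 35.2 and 27.5 CPM at day 5, against 58.5, 67.7 and 70.9 CPM at day 1. Whether this RNA came from embryos inside the mothers was not tested. Nor was the part of embryo RNA in the bHLH, muscle and collagen values. ceh-51 overlaps emb-4 on the other strand.

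Major sperm protein genes were low in all 3 day-5 libraries, library 46 included. The major sperm proteins are a family of near-identical genes that drive the crawling of sperm and signal to oocytes. Summed over 35 sperm markers, the level was 1.04, 2.33 and 1.93 CPM at day 5, against 15.2, 25.4 and 9.28 CPM at day 1, with msp-79 and msp-32 at 0 throughout. With all libraries, 18 of 19 major sperm protein genes tested lay below day 1 without overlap, where 16% of all genes did, and their median was -2.72 on the log2 scale. DESeq2 called 9 of the 19 lower with all libraries, where it called 0.305% of all genes lower. With library 46 edgeR called none. Without it edgeR called msp-31 and msp-38 lower of 20 tested, beside 1.47% of all genes. msp-31 had 0.144, 0.144 and 0.212 CPM at day 5, against 1.07, 1.7 and 0.498 CPM at day 1. msp-38 had 0, 0.0287 and 0.0471 CPM at day 5, against 0.629, 0.885 and 0.348 CPM at day 1. Other sperm genes did not share this drop in their summed level, which was 217, 210 and 223 CPM at day 5, against 214, 208 and 196 CPM at day 1. With all libraries, 12 of 38 tested lay lower and 4 higher without overlap, beside 16% and 12.8% of all genes. DESeq2 called 1 lower with all libraries, where it called 0.305% of all genes lower. The list's median was -0.66 without library 46 and -0.61 in library 46, with 16 of 39 lower and 11 higher without overlap in libraries 47 and 48 (34.3% and 32.3% of all genes). Of the 39, edgeR called spe-5, a gene of sperm development, higher, by 0.99 ± 0.26 on the log2 scale (adjusted p = 0.0446), where it called 3.41% of all genes higher. The major sperm protein values are low counts, and reads of one member may have been assigned to another. Without libraries 40, 43 and 46, the family's median log2 difference between ages was -2.55 under M05B5.5, 0.24 under T14F9.5 and -1.51 on L4440. Oocyte and maternal germ-line markers, by comparison, summed to 8700, 9710 and 11300 CPM at day 5, against 8490, 8270 and 7990 CPM at day 1.

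**Figure D4:**
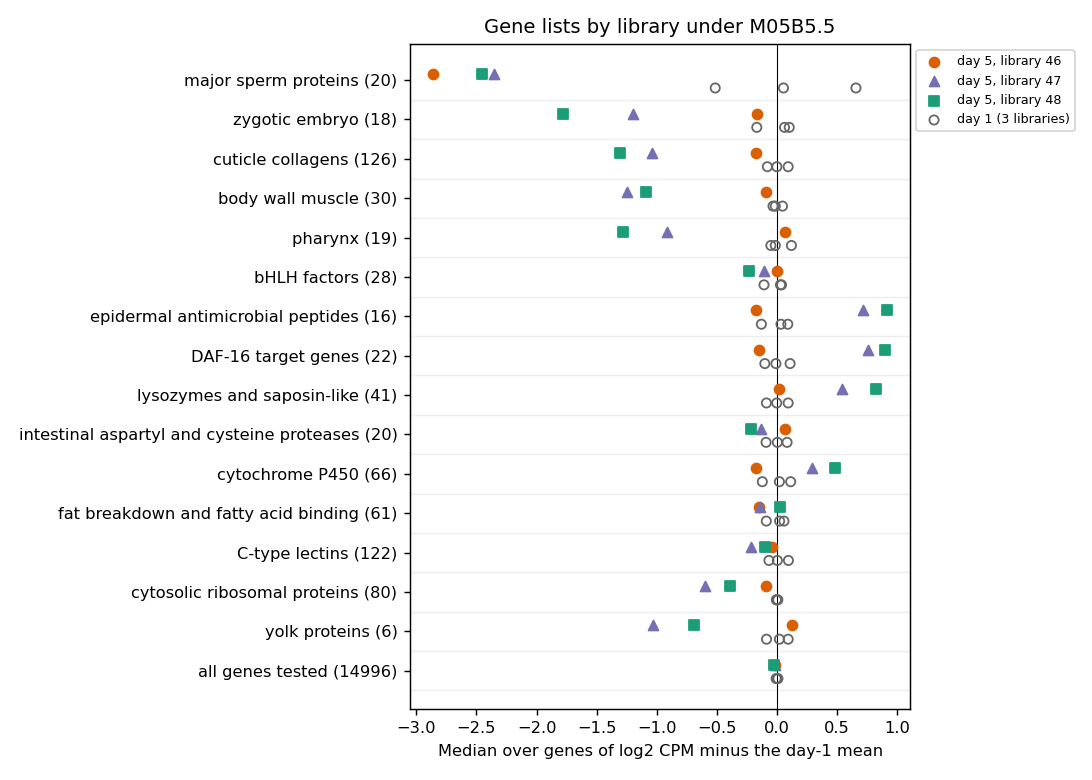
Median over the genes of a list (number tested in brackets) of log2 CPM minus the day-1 mean, for each library; filled symbols are the day-5 libraries and open circles the day-1 libraries. The major sperm proteins are low in all 3 day-5 libraries, while for collagens, muscle and DAF-16 targets library 46 lies near 0, at -0.17, -0.09 and -0.15.

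Of 41 lysozyme and saposin-like genes, whose products break bacterial walls or membranes, 11 were called higher and none lower, where 3.41% of all genes were called higher and 1.47% lower. Their median was 0.80 without library 46, 0.51 with all libraries and 0.02 in library 46. lys-1 had 266, 393 and 538 CPM at day 5, against 222, 239 and 245 CPM at day 1. lys-2 had 127, 187 and 287 CPM at day 5, against 104.1, 118 and 109 CPM at day 1. For both genes, all 3 day-5 libraries exceeded day 1, with library 46 the lowest of the 3. They rose by 0.98 ± 0.22 and 1.11 ± 0.25 on the log2 scale without library 46 (adjusted p = 0.0368 for both, edgeR with Benjamini-Hochberg adjustment). Without libraries 40, 43 and 46, the values on L4440 were 0.05 and 0.08, and neither gene's interaction passed the test. abf-2, an antibacterial-factor-related peptide, had 0.722, 11.7 and 17.6 CPM at day 5, against 0.957, 0.405 and 0.697 CPM at day 1.

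C-type lectins, sugar-binding proteins used against microbes, had 13 of 122 called higher (3.41% of all genes were) and none lower (1.47%), although their median was -0.19. clec-62 had the lowest adjusted p of all genes, with 41.3, 67.6 and 80.5 CPM at day 5, against 31.8, 32 and 38.4 CPM at day 1. All 3 day-5 libraries exceeded day 1. It rose by 1.12 ± 0.13 on the log2 scale without library 46 (adjusted p = 0.00989), and with all libraries the value was 0.89 ± 0.18 (edgeR with Benjamini-Hochberg adjustment). Among 16 epidermal antimicrobial peptide genes, 6 were called higher and 2 lower, with a median of 0.73, beside 3.41% and 1.47% of all genes. cnc-7, a caenacin peptide, had 0.779, 4.17 and 7.09 CPM at day 5, against 0.301, 0.405 and 0.423 CPM at day 1, above day 1 in all 3 libraries. nlp-24 of the same class ran the other way, with 9.41, 0.603 and 0.8 CPM at day 5, against 12.34, 10.8 and 13.7 CPM at day 1, and fell by 4.02 (SE 0.89, adjusted p = 0.0368).

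Intestinal proteases were called higher in 4 of 20 cases and lower in none, beside 3.41% and 1.47% of all genes. cpr-1, a cathepsin B-like protease, had 155, 593 and 611 CPM at day 5, against 76.4, 98.4 and 124 CPM at day 1, higher in all 3 day-5 libraries. It rose by 2.60 ± 0.47 on the log2 scale without library 46 (adjusted p = 0.0368, edgeR with Benjamini-Hochberg adjustment). cpr-3 and cpr-4, of the same family, were also higher in all 3 day-5 libraries, with 22.9, 108 and 94 CPM for cpr-3 at day 5, against 20.7, 17.4 and 18.5 CPM at day 1. asp-17, an aspartyl protease, had 2.89, 92.5 and 92.9 CPM at day 5, against 3.09, 2.17 and 3.58 CPM at day 1, with library 46 inside the day-1 range. The list's median was -0.11.

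Known targets of DAF-16, the FOXO factor under insulin-like signalling, were called higher in 8 of 22 cases and lower in none, beside 3.41% and 1.47% of all genes. Their median was 0.95 without library 46, 0.64 with all libraries and -0.15 in library 46 alone. hsp-16.2, a small heat shock protein, had 0.289, 3.45 and 5.74 CPM at day 5, against 0.192, 0.127 and 0.124 CPM at day 1. hsp-16.41, its neighbour on chromosome V, had 0.173, 3.94 and 7.11 CPM at day 5, against 0.192, 0.101 and 0.149 CPM at day 1. They rose by 4.53 ± 0.98 and 4.79 ± 1.014 on the log2 scale without library 46 (adjusted p = 0.0368 for both, edgeR with Benjamini-Hochberg adjustment). The pair lies on opposite strands and shares a promoter region, and reads may be divided between near-identical copies within the family. hil-1, a linker histone, had 3.75, 19.4 and 23.6 CPM at day 5, against 3.31, 3.79 and 4.01 CPM at day 1. Of 19 cytosolic heat shock genes, 4 were called higher (3.41% of all genes were), and hsp-12.1 was called lower, with 0.577, 0.316 and 0.235 CPM at day 5, against 0.547, 0.885 and 1.02 CPM at day 1. The list's median was -0.11.

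Of 22 fatty acid synthesis and desaturation genes, 4 were called higher and none lower: fat-2, fat-3, fat-5 and fat-6, all desaturases that introduce double bonds into fatty acids. The list's median was 0.09, and 3.41% of all genes were called higher. fat-2 had 388, 993 and 1266 CPM at day 5, against 336, 381 and 383 CPM at day 1. fat-5 had 57.7, 136 and 206 CPM at day 5, against 42.9, 53 and 42.7 CPM at day 1. Both were above day 1 in all 3 day-5 libraries, library 46 by the least. fat-2 rose by 1.62 ± 0.36 and fat-5 by 1.89 ± 0.34 on the log2 scale without library 46 (adjusted p = 0.0368 for both, edgeR with Benjamini-Hochberg adjustment). Among 61 genes of fat breakdown, 7 were called higher, beside 3.41% of all genes, and 1 lower, near the 1.47% of all genes, and the list's median was -0.09. lipl-5, a lysosomal lipase, had 154, 317 and 439 CPM at day 5, against 132, 144 and 147 CPM at day 1, while acdh-8, an acyl-CoA dehydrogenase gene, had 0.173, 0.0287 and 0.0706 CPM at day 5, against 0.684, 0.582 and 0.523 CPM at day 1.

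Cytochrome P450 genes, which oxidise lipids and foreign compounds, were called higher in 12 of 66 cases and lower in none, beside 3.41% and 1.47% of all genes, with a median of 0.36 without library 46 and -0.17 in library 46. cyp-33E1 had 3.49, 8.53 and 10 CPM at day 5, against 4.27, 4.17 and 4.78 CPM at day 1, with library 46 the lowest of the 6 libraries. It rose by 1.07 ± 0.19 on the log2 scale without library 46 (adjusted p = 0.0368, edgeR with Benjamini-Hochberg adjustment). UDP-glucuronosyltransferases had 5 of 61 called higher and 2 lower, and glutathione S-transferases 3 of 42 higher and 2 lower, small numbers to set beside the 3.41% and 1.47% of all genes. ugt-57 was low in every day-5 library, with 0.664, 0.517 and 0.282 CPM, against 1.8, 2.53 and 3.56 CPM at day 1, and DESeq2 called it with all libraries too (adjusted p = 0.00532). Transthyretin-like genes, secreted proteins of a nematode family, had 5 of 49 called higher and 2 lower, beside 3.41% and 1.47% of all genes. ttr-45 had 47.4, 225 and 307 CPM at day 5, against 43, 48.4 and 49.3 CPM at day 1.

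Genes that separated the ages in all 6 libraries, library 46 among them, are described here by the gap between the nearest libraries of the 2 ages, which chose them, and no test is drawn on them. Over all 14735 genes, 1888 (12.8%) were higher and 2354 (16%) lower at day 5 without overlap. Among genes averaging at least 5 CPM at the higher age, the widest gaps among increases were those of gst-24, T26H5.9, M02H5.8, WBGene00014454, tsp-2 and F48C1.9. gst-24, a glutathione S-transferase, had 5.51, 7.32 and 5.20 CPM at day 5, against 3.12, 2.93 and 2.74 CPM at day 1. M02H5.8, on chromosome V at 449981 to 450437, had 26.3, 38.1 and 39.1 CPM at day 5, against 16.8, 13.8 and 16.8 CPM at day 1. WBGene00014454, a ribosomal RNA gene of the mitochondrial genome, had 35.1, 36.7 and 40.4 CPM at day 5, against 23.7, 21.4 and 21.4 CPM at day 1. In gst-24 and WBGene00014454, library 46 lay close to its group, while T26H5.9 had 4.96 CPM in library 46 and 37.5 and 35.5 CPM in libraries 47 and 48, against 2.9, 1.7 and 3.09 CPM at day 1.

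Among genes averaging at least 5 CPM at the higher age, the widest gaps among decreases were those of T02E9.5, zip-7, syd-9, pha-4, lam-3 and Y65A5A.1. zip-7, a bZIP transcription factor, had 2.6, 2.33 and 1.36 CPM at day 5, against 5.42, 8.45 and 6.67 CPM at day 1. lam-3, a laminin alpha chain of basement membranes, had 23.8, 23.1 and 11 CPM at day 5, against 41.2, 60.4 and 63.1 CPM at day 1. For both, library 46 lay with its group. pha-4, the FoxA factor that specifies the pharynx, had 10.7, 4.19 and 4.07 CPM at day 5, against 19, 23.8 and 23.5 CPM at day 1, and syd-9, a zinc finger gene named for synaptic defects, had 4.1, 1.44 and 1.11 CPM at day 5, against 7.44, 7.97 and 8.01 CPM at day 1. In pha-4 and syd-9, library 46 lay between the others of its group and day 1. syd-9 and pha-4 overlap other genes.

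**Figure D5:**
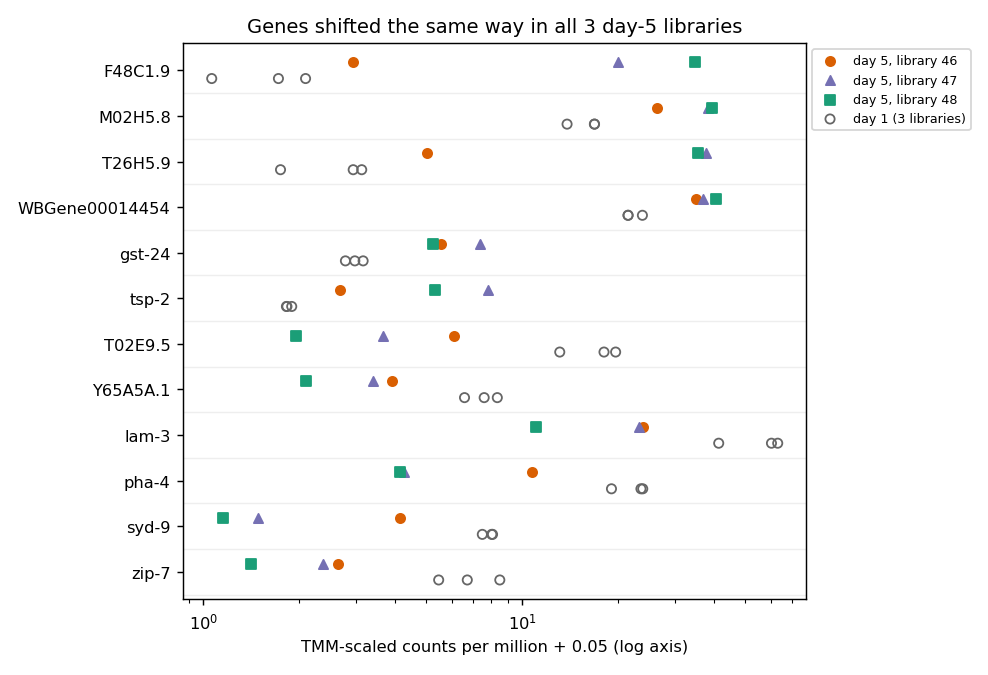
TMM-scaled counts-per-million (CPM) plus 0.05, on a log axis, of the 12 genes with the widest gap between the nearest day-5 and day-1 libraries, among genes of at least 5 CPM. Filled symbols are the day-5 libraries and open circles the day-1 libraries, which do not overlap for any of the 12, since that chose them.

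Whether the ages differed by another amount under M05B5.5 than under the other plasmids was tested as an interaction over the same fit. Against L4440 no gene passed (0 of 14735; 1923, or 13.1%, at an unadjusted p under 0.05; DESeq2 0). The lowest unadjusted values were those of sdc-1, a dosage compensation gene, and T14G8.3. sdc-1 was -0.20 ± 0.11 under M05B5.5 and 0.44 on L4440, a difference of -0.64 ± 0.15 on the log2 scale (adjusted p = 0.38, edgeR with Benjamini-Hochberg adjustment). Against T14F9.5 no gene passed either (0 of 14735; 141, or 0.957%, at an unadjusted p under 0.05; DESeq2 0). Without library 46 edgeR again called none against L4440 or T14F9.5 (1746, or 11.6%, and 375, or 2.5%, at an unadjusted p under 0.05), while DESeq2 called 22 (0.147%) against L4440 and 7 (0.0467%) against T14F9.5. These fits left out the first day-5 library of M05B5.5 but kept those of L4440 and T14F9.5, libraries 40 and 43. Without libraries 40, 43 and 46 edgeR called 0 of 14952 in either interaction, and DESeq2 was not run on that set. The count against L4440 with all libraries depended on 1 library, since it became 2128 once L4440 day-1 replicate 3 was dropped. sqrd-1, a sulfide:quinone oxidoreductase of mitochondria, had 8.66, 12.4 and 10.9 CPM at day 5 under M05B5.5, against 8.12, 7.56 and 6.59 CPM at day 1. It rose by 0.64 ± 0.16 on the log2 scale without library 46 (adjusted p = 0.0396). Without libraries 40, 43 and 46 its log2 difference between ages was 0.64 under M05B5.5, 0.03 under T14F9.5 and 0.07 on L4440, and the interactions did not pass. The contrast with T14F9.5 chose sqrd-1, by a low unadjusted p among genes of at least 5 CPM, so these values only describe it.

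The first day-5 libraries of L4440 and T14F9.5, libraries 40 and 43, lay beside library 46 on the first and the third principal components, at -19.9 and -19.4 and at 23.3 and 22.5. With all 3 left out, 3049 genes were called under M05B5.5, 1462 higher (9.78% of 14952) and 1587 lower (10.6%), and 732 of the 733 were among them. In that fit the plasmids share no library, so their lists can be compared. Of the 1462 higher genes, 898 were also called higher on L4440, which is 61.4% of the M05B5.5 list and 49.7% of the 1808 of L4440 (12.1% of genes). With T14F9.5, 928 were shared, 63.5% of the M05B5.5 list and 82.1% of the 1131 of T14F9.5 (7.56%). Of the 1587 lower genes, 1204 (75.9%) were also lower on L4440, 44.8% of its 2687 (18% of genes), and 1106 (69.7%) under T14F9.5, 71.6% of its 1545 (10.3%). Between 0 and 3 genes were called in opposite directions in each of these pairs. The shared spread of 1 fit enters all of these lists.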

How the data were processed

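RNA of 18 samples was sequenced after library preparation with the TruSeq RNA kit, as the labels' protocols state. The submitters' processing notes name bcl2fastq 1.8.4, STAR 2.4.1d, featureCounts 1.4.6-p4 and the build WBcel235; the strand setting, the treatment of multiply placed reads and the annotation release are not given in the sources used here. The table the authors deposited holds raw counts per gene, and these counts entered the tests as they stand. The deposited RPKM table was not used. Ensembl's WBcel235 annotation gave names and positions for 46449 of 46748 gene identifiers.

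Tests used edgeR 4.0.16 in R 4.3.3 with 1 coefficient for each of the 6 groups of all 18 libraries: filterByExpr (minimum count 10), TMM factors, robust quasi-likelihood fits (prior count 2; 12 residual degrees of freedom, 11 without library 46), and Benjamini-Hochberg adjustment over all genes at 0.05. SE is the fold change divided by the square root of F. DESeq2 1.42.0 was an alternative. The procedure was tested on simulated data. Levels are CPM on TMM-scaled totals. Replicate numbers follow accession order and pair nothing.

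The members, lists and rules were chosen with earlier results of these data known. Named genes are hlh-2 and lin-32, then, among genes averaging 5 CPM or more in the higher group, the 8 largest rises and 8 largest falls past the threshold without overlap when library 46 is left out, and the 6 widest gaps over all 6 libraries in each direction; the same rule with all libraries named none, since none passed. For each list described, up to 4 called members of lowest adjusted p were named, and for interactions the lowest p. Lists are described by counts and medians. Alternatives were other factors and filters, lane as a term, a gene length offset, a common term for the first day-5 libraries, other sets of libraries, and leaving out each replicate.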

Additional observations from a re-analysis of the deposited data

How the results depend on the processing

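With all libraries, the count of 0 genes stayed at 0 with upper-quartile or RLE factors, a minimum count of 50, no filter, lane as a term, the compared groups alone and without any other single library of the 6; it became 146 with DESeq2, 1 (M02H5.8) with a gene length offset, 3836 with a common term for the first day-5 libraries, and 3049 without libraries 40, 43 and 46. Leaving out 1 replicate gave 0 to 733. Without library 46, the 733 became 1980 with DESeq2, 391 with no filter, 1518 with a length offset, 3049 without libraries 40, 43 and 46, 6944 in the compared groups alone and 0 with lane as a term. Leaving out 1 more library gave 0 to 2, the 2 being clec-62 and egas-3; with 1 day-5 library left, that library is assumed to vary like the other groups. RLE (740), upper-quartile (494) and minimum count 50 (589) stayed within 1.5 times. The interaction against L4440 ranged over 0 to 2128 on leaving out 1 library, the 2128 coming without L4440 day-1 replicate 3, and that against T14F9.5 was 0 throughout. hlh-2 changed sign with lane as a term, at -0.063 with all libraries and -0.062 without library 46. The cause was not tested in any of these. Over the named genes and alternatives, 765 values called as reported were called again and 720 were not, while 1506 values not called stayed so and 375 were called; 29 list medians moved. No paired analysis was possible because replicate numbers follow accession order only. Genes under about 1 CPM rest on few counts, which limits their folds.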

Other observations

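The genes named here changed without library 46 and belong to groups of which few members were called. ins-19, an insulin-like peptide gene, had 0.664, 22.3 and 35.4 CPM at day 5, against 0.739, 0.86 and 0.846 CPM at day 1, and was the 1 called of 28 tested insulin-like genes, a share near the 3.41% of all genes called higher. nlp-39, a neuropeptide-like gene, had 0.116, 9.16 and 11.6 CPM at day 5, against 0.192, 0.202 and 0.249 CPM at day 1. Both were high in libraries 47 and 48 alone, and rose by 5.05 ± 1.18 and 5.27 ± 1.17 on the log2 scale (adjusted p = 0.0382 and 0.0368, edgeR with Benjamini-Hochberg adjustment). sqst-1, the worm p62 autophagy receptor, had 43.9, 145 and 124 CPM at day 5, against 55.6, 62.6 and 68.3 CPM at day 1, with library 46 the lowest of all. It was 1 of 2 called higher of 53 autophagy and lysosome genes, a share near the 3.41% of all genes. akt-2, a kinase below the insulin receptor, had 6.99, 20.9 and 24.5 CPM at day 5, against 7.38, 8.73 and 8.39 CPM at day 1. sid-2, a gut protein that takes up double-stranded RNA, had 8.78, 19.7 and 19.1 CPM at day 5, against 9.16, 8.5 and 8.91 CPM at day 1, and rose by 1.13 ± 0.26 (adjusted p = 0.0368); without libraries 40, 43 and 46 the values were 1.13 under M05B5.5, 0.88 under T14F9.5 and 0.85 on L4440. his-24, a linker histone, had 57.8, 45.1 and 20.6 CPM at day 5, against 94, 105 and 97.6 CPM at day 1, below day 1 in all 3 libraries. Of 37 histone genes, his-24 and hil-6 were called lower and hil-1 higher, beside 1.47% and 3.41% of all genes.

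Of the 512 genes called higher, 164 (32.0%) lie on chromosome V and 42 (8.2%) on chromosome I, beside 19.6% and 15.7% of the 14996 genes tested. Of the 221 called lower, 54 (24.4%) lie on chromosome II and 43 (19.5%) on X, beside 17.6% and 14.4%. Cytosolic ribosomal protein genes had none of 80 called, where 4.89% of all genes were. Of the 80, 79 lay below day 1 in libraries 47 and 48, where 34.3% of all genes did, with a median of -0.49. Without libraries 40, 43 and 46 their median was -0.49 under M05B5.5, -0.52 under T14F9.5 and -1.35 on L4440. Yolk protein genes had none of 6 called, with a median of -0.85 without library 46 and 0.13 in library 46.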
